A study of Mus musculus with 3 samples.

Results

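Fgf21-positive hepatocyte nuclei are described here in the livers of mice fed to model fatty liver, the condition now named metabolic dysfunction-associated steatotic liver disease (MASLD). A nucleus was taken as a hepatocyte nucleus when it held at least as many unique molecular identifiers (UMIs, each standing for 1 captured RNA molecule) as the shallowest barcode of the SD library, at most 5% mitochondrial UMIs, and at most 2 UMIs summed over 9 markers of other liver cells (Stab2, Ptprb, Clec4f, Cd5l, Adgre1, Reln, Ntm, Skap1 and Gpm6a). It was Fgf21-positive when it held at least 2 Fgf21 UMIs, so the members were chosen by their measured Fgf21 count. Of the 21665 barcodes in the series, 890 met this rule, 520 of the 6032 hepatocyte nuclei in the MASLD library and 370 of the 6784 in the Aza-TdC library. They were compared with the hepatocyte nuclei of the same library that held 0 Fgf21 UMIs, 4400 in MASLD and 5400 in Aza-TdC, weighted to the same decile of total UMIs per nucleus. The 1112 and 1014 nuclei with exactly 1 Fgf21 UMI entered neither side.

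RNA of single nuclei from frozen liver was captured with 10x Genomics chemistry from male C57BL/6N mice that were 8 weeks old at the start. The SD group stayed on a standard diet, the MASLD group received the MASLD diet and a drink with glucose and fructose for 18 weeks, and the Aza-TdC group received the same diet and drink for 18 weeks and, from week 14 to week 18, daily oral Aza-TdC at 2 mg/kg. Aza-TdC, or 5-aza-4′-thio-2′-deoxycytidine, is a cytidine analogue that lowers the DNA methyltransferase DNMT1. Each group was 1 library, and the labels do not say how many animals went into it. Nuclei of 1 library are not replicates, so no p-value is given, every interval is a 95% interval for counting error only, and a difference between the MASLD and Aza-TdC libraries cannot be told apart from a difference between any 2 libraries.

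FGF21 is a hormone that the liver releases into the blood. It acts on cells that carry an FGF receptor, mainly FGFR1, together with the co-receptor beta-Klotho, encoded by Klb. In hepatocytes the gene is known as a target of PPARA in fasting, of ATF4 in the integrated stress response and of ChREBP after sugar intake, and its blood level is raised in fatty liver.

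Fgf21 lies on the minus strand of mouse chromosome 7, at chr7:45613886-45615490 in GRCm38. The 250 bases before its start are shown because they hold letters of the ATF4 element and an E-box, and those of Angptl8 because this gene had one of the highest ratios in Fgf21-positive nuclei. Capitals mark matches, on either strand, to TGATGNAAN, the element bound by ATF4 with C/EBP partners, or to the E-box CACGTG. Both sequences are RefSeq's for GRCm38.p6 and run 5′ to 3′ on the strand of the gene, at chr7:45615491-45615740 (minus) and chr9:21835260-21835509 (plus).
Fgf21: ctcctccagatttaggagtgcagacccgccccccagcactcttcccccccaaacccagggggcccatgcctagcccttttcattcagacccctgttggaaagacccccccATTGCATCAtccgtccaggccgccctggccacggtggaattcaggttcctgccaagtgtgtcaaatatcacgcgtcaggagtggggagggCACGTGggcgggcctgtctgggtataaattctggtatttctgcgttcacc
Angptl8: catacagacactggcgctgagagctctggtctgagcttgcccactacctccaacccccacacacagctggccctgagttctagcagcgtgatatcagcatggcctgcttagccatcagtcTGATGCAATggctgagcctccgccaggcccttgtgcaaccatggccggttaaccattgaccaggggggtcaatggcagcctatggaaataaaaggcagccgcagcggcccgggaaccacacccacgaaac
In the Fgf21 promoter the ATF4 element, here ATTGCATCA on the reverse strand, lay at -140 to -132 from the start, and the E-box at -50 to -45. In the Angptl8 promoter TGATGCAAT lay at -130 to -122. Among all 32851 mouse promoters of the same length, 3.44% held TGATGNAAN and 6.02% held CACGTG. The exact form of the PPAR element, a direct repeat of AGGTCA with 1 base between, was in neither window, and in 0.0335% of all promoters. Looser forms were not searched for, so this does not show that either window lacks a PPAR site. Of the 12 highest genes as chosen below, 8 had a promoter sequence, 1 of them (Angptl8) with TGATGNAAN and 1 (Aqp8) with CACGTG. A match describes letters in this window and shows no binding.

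Hepatocyte nuclei with 2 or more Fgf21 UMIs were frequent in both libraries on the MASLD diet and rare in SD. They made up 8.62% (7.92 to 9.36) of hepatocyte nuclei in MASLD and 5.45% (4.93 to 6.02) in Aza-TdC, against 0.117% (0.0505 to 0.230), or 8 nuclei, in SD. The level over all hepatocyte nuclei was 67.4, 42.8 and 2.73 CPM (UMIs of the gene per 1000000 UMIs) in the same order. Median UMIs per hepatocyte nucleus were similar, 6360 in MASLD, 6766 in Aza-TdC and 5912 in SD. With every nucleus thinned to the depth floor of the rule the expected shares were 1.12%, 0.593% and 0.0224%, and thinned to 5000 UMIs, with 1873, 1734 and 2466 shallower nuclei left out, they were 5.64%, 3.18% and 0.0721%. Nuclei with more than 2 UMIs over the 9 markers, which should not make FGF21, held 2 or more Fgf21 UMIs in 1.64% of 367 in MASLD and 1.30% of 461 in Aza-TdC, at median depths of 2831 and 2940 UMIs, and in 0.165% and 0.0650% after thinning to that floor. Thinned to 5000 UMIs, 3.92% of 89 such nuclei in MASLD and 2.51% of 105 in Aza-TdC held 2 or more. That left out 278 and 356 shallower ones, and these shares lie nearer to the 5.64% and 3.18% of hepatocyte nuclei. The Fgf21 level in these other nuclei was 0.387 and 0.432 of the hepatocyte level, beside a median of 0.624 and 0.426 over 26 hepatocyte identity genes.

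Fgf21 was unevenly spread over hepatocyte nuclei. In MASLD 4400 nuclei held 0 UMIs, 1112 held 1, 293 held 2, 111 held 3 and 116 held 4 or more, with a maximum of 26. In Aza-TdC 5400 held 0, 1014 held 1, 238 held 2, 73 held 3 and 59 held 4 or more, with a maximum of 56. The positive nuclei thus carried 60.1% of all hepatocyte Fgf21 UMIs in MASLD and 52.3% in Aza-TdC. These percents follow in part from the rule, which takes nuclei by their Fgf21 count, and their value under an even spread was not taken. The variance of the count over its mean was 3.28 and 3.97. Of the genes whose mean count was within 1.2-fold of that of Fgf21, 6 of 994 had a higher value in MASLD and 3 of 1078 in Aza-TdC, where the medians were 1.24 and 1.17. In Aza-TdC 1 nucleus held 56 Fgf21 UMIs and 1 held 31, which weigh heavily in the variance. The value without them was not taken.

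**Figure D1:**
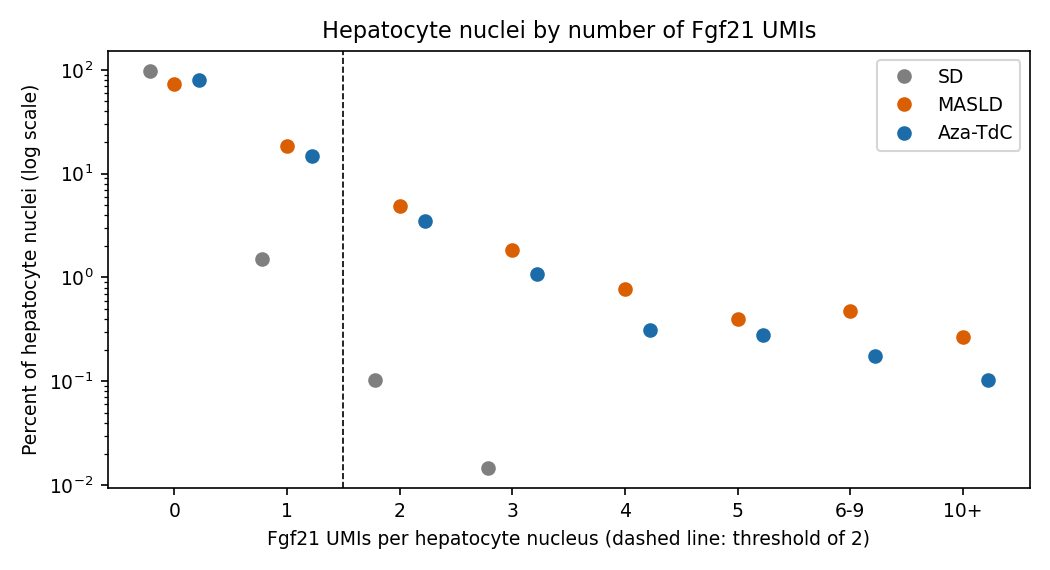
Percent of hepatocyte nuclei (log scale) with each number of Fgf21 UMIs in the SD, MASLD and Aza-TdC libraries, with the threshold of 2 as a dashed line. SD has 8 nuclei at or above the threshold, MASLD 520 and Aza-TdC 370, with no gap in the counts at the threshold.

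The 3 libraries held 43569644 to 51789068 UMIs over 6928 to 7598 barcodes. Libraries shared 9 to 15 barcode sequences pairwise, and 1 barcode was positive in both MASLD and Aza-TdC. Fgf21-positive nuclei were deep: their share went from 2.98% in the lowest UMI decile to 22.9% in the highest in MASLD, and from 1.77% to 10.0% in Aza-TdC. A fixed threshold of 2 UMIs is passed more easily in deeper nuclei, so this follows at least in part from the rule. After weighting by decile the median UMIs per nucleus were 8414 in positive and 8407 in zero nuclei of MASLD, and 7980 and 8055 in Aza-TdC, and mitochondrial shares were 0.157% and 0.176%, and 0.0736% and 0.0766%. Genes spanning under 10 kb gave a median of 17.6% of UMIs in positive against 15.8% in matched zero nuclei in MASLD, and 16.4% against 15.6% in Aza-TdC. No doublet caller was run.

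Fgf21-positive nuclei lay more often toward the periportal side of the lobule. The position was read from the pericentral share, the UMIs of a nucleus over 32 pericentral genes as a percent of those over these and 30 periportal genes. Its median was 10.9% in positive and 26.9% in matched zero nuclei of MASLD, and 8.82% and 12.6% in Aza-TdC. Across quintiles of this share, from lowest to highest, 13.9%, 11.3%, 8.37%, 5.89% and 3.65% of MASLD nuclei were positive, and the Fgf21 level went from 112 to 32.5 CPM. In Aza-TdC the shares were 7.22%, 8.25%, 5.75%, 3.98% and 2.06%, and the level went from 54.2 CPM in the first and 59.6 CPM in the second quintile to 21.6 CPM in the last. The intervals of the first and last quintile did not overlap in either library, and those of the first and second did in both. Median depth differed little between quintiles (6132 to 6610 UMIs in MASLD, 6312 to 7011 in Aza-TdC). The quintiles are ranges and not cell types: between 137 and 540 nuclei in MASLD, and between 139 and 1069 in Aza-TdC, lay within 1 percentage point of a cut. Among nuclei with at least 2 UMIs over Glul, Lgr5 and Slc1a2, genes of the hepatocytes next to the central vein, 7.11% (5.69 to 8.76) were positive in MASLD against 8.97% (8.19 to 9.81) of the others, and 3.58% (2.35 to 5.20) against 5.68% (5.11 to 6.29) in Aza-TdC. These nuclei were deeper than the others, with medians of 7518 against 6105 UMIs in MASLD and 7958 against 6646 in Aza-TdC. With every nucleus thinned to the depth floor of the rule the shares were 0.647% against 1.23% and 0.287% against 0.629%.

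**Figure D2:**
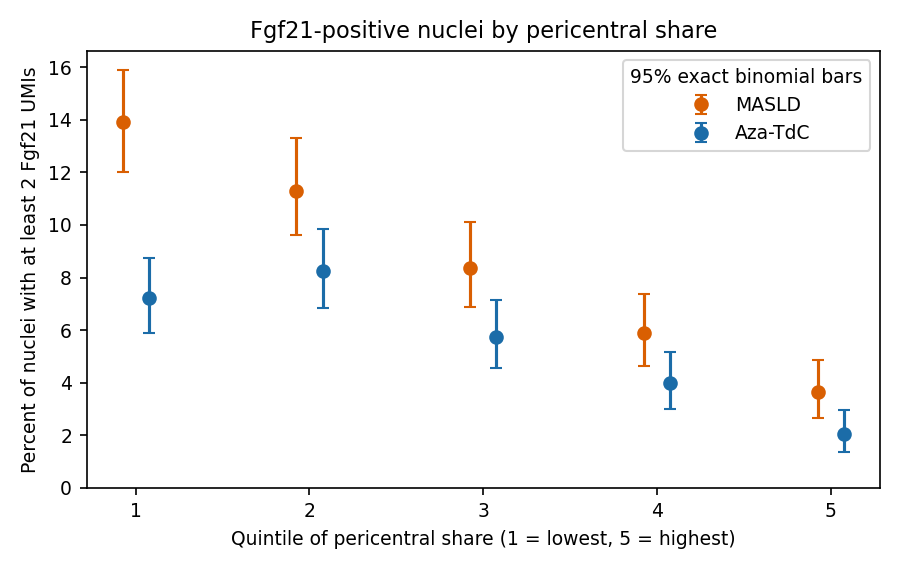
Percent of hepatocyte nuclei with at least 2 Fgf21 UMIs in each quintile of the pericentral share, with 95% exact binomial bars. MASLD goes from 13.9% in the lowest quintile to 3.65% in the highest, and Aza-TdC from 7.22% to 2.06%.

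Levels of all other genes were then compared between positive and zero nuclei as a log2 ratio of observed to expected UMIs, and a gene was counted as higher or lower past 1.5-fold. In MASLD 588 of 10868 measured genes (5.41%) were higher and 230 (2.12%) lower. In Aza-TdC 246 of 9904 (2.48%) were higher and 168 (1.7%) lower. Of the 9863 genes measured in both, 446 (4.52%) were higher in MASLD, 245 (2.48%) in Aza-TdC and 99 (1%) in both, which is 22.2% of the MASLD list and 40.4% of the Aza-TdC list. Lower were 146 (1.48%) in MASLD, 167 (1.69%) in Aza-TdC and 85 (0.862%) in both, 58.2% and 50.9% of the lists. Over these genes Pearson's r between the libraries' log2 ratios was 0.553. The ratio moved with the genomic span of the gene. Among genes under 5 kb, 19.1% were higher in MASLD and 9.16% in Aza-TdC, with median log2 ratios of 0.32 and 0.20, and among genes over 100 kb 1.88% and 0.669% were, with medians of -0.11 and -0.04. The part of gene span and of lobular position in these ratios was not tested, so values are also given below with nuclei matched, in addition to UMI decile, on tercile of the pericentral share and tercile of the short-gene share. With both added, 46 genes were higher in both libraries, 44 of them among the 99, and 8 were lower, 5 of them among the 85.

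The 12 highest genes, ranked among those past 1.5-fold in both libraries by the interval bound nearest 0, had several functions. Angptl8, whose secreted product restrains lipoprotein lipase, stood at 356 CPM (339 to 374) in positive and 69.4 CPM in matched zero nuclei of MASLD, a log2 ratio of 2.36 (2.25 to 2.47). In Aza-TdC it stood at 192 CPM (177 to 208) against 73.6 CPM, a log2 ratio of 1.38 (1.25 to 1.51). With both added matchings the log2 ratios were 1.93 and 1.12. More nuclei held the transcript, 51.2% of positive against 33.7% of zero nuclei in MASLD and 47.8% against 37.6% in Aza-TdC. Single nuclei held up to 93 and 66 Angptl8 UMIs. Aqp8, which encodes a water and peroxide channel, stood at 45.6 against 11.4 CPM in MASLD and 18.8 against 5.55 CPM in Aza-TdC, log2 ratios of 2.00 (1.71 to 2.28) and 1.76 (1.33 to 2.20). Hes1, a transcriptional repressor downstream of Notch, stood at 84.4 against 32.1 CPM and 77.2 against 32.8 CPM, and the oxidative stress gene Osgin1 at 186 against 57.1 CPM and 210 against 112 CPM. Cebpa, a transcription factor that maintains hepatocyte identity, stood at 142 against 72.4 CPM and 94.5 against 45.7 CPM. The chaperone Hspa8, ferritin light chain (Ftl1), the tubulin Tubb2a, Id3, Ccnd1 and Pdk4 were also among the 12 highest, with log2 ratios between 0.91 and 1.30 in MASLD and between 0.84 and 1.26 in Aza-TdC. For the 11 genes named here the ratio stayed past 1.5-fold with both added matchings, at 0.74 or more in MASLD and 0.71 or more in Aza-TdC. With positive taken as 2 or 3 Fgf21 UMIs, several were under the 1.5-fold line of 0.585: Hspa8 (0.57 and 0.52) and Id3 (0.41 and 0.43) in both libraries, and Hes1 (0.50), Osgin1 (0.35) and Ftl1 (0.52) in Aza-TdC. Without the top UMI decile Ftl1 was under it in MASLD, at 0.53.

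**Figure D3:**
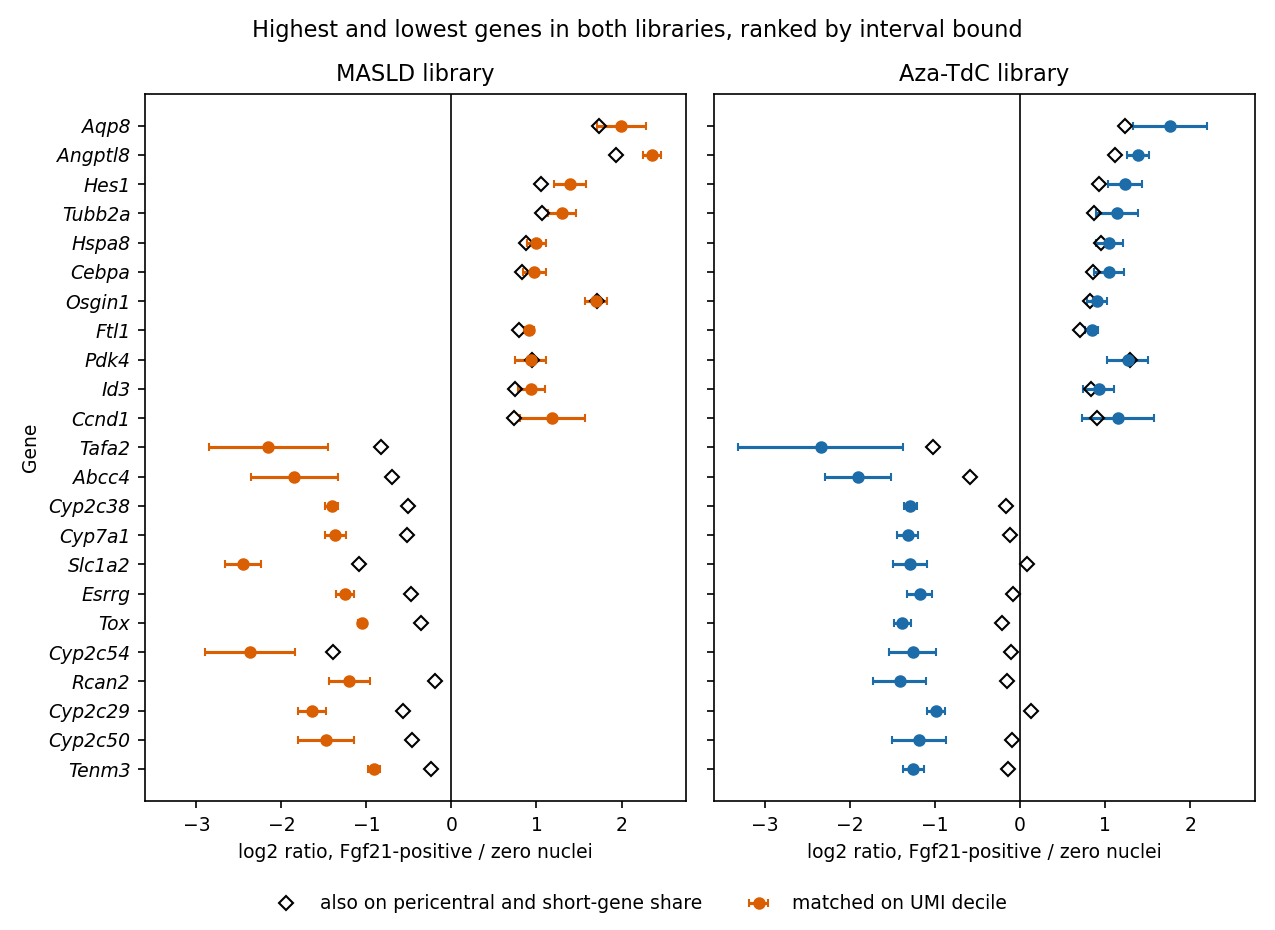
Log2 ratio of Fgf21-positive to zero nuclei for 11 of the 12 highest and the 12 lowest genes in the MASLD and Aza-TdC libraries, with 95% counting bars (circles), and the ratio when nuclei were matched also on pericentral and short-gene share (diamonds). The diamonds of the 11 high genes drawn lie at 0.71 or more, while in Aza-TdC those of most of the 12 lowest lie near 0.

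Genes of the integrated stress response, in which ATF4 switches on amino acid and stress genes and of which Fgf21 is itself a known target, were higher for part of the list. Of 25 measured members 8 were higher and 1 lower in MASLD (median log2 ratio 0.18, beside 0.05 over all genes), and of 24 in Aza-TdC 5 were higher and 0 lower (median 0.36, beside 0.04). Of all genes 5.41% and 2.48% were higher and 2.12% and 1.7% lower, so the counts of lower members lie near the background. Nupr1, a stress-induced chromatin protein, stood at 23.8 against 6.50 CPM in MASLD, where 1 nucleus held 26 of its UMIs, and at 11.1 against 5.51 CPM in Aza-TdC. Atf5, a relative of ATF4, stood at 134 against 58.0 CPM and 98.8 against 60.3 CPM. Ddit3 (CHOP) had log2 ratios of 0.78 (0.50 to 1.07) and 0.73 (0.46 to 1.00), and the pseudokinase Trib3 0.91 (0.48 to 1.33) and 0.59 (0.08 to 1.10). Atf4 itself had 0.82 (0.68 to 0.96) and 0.50 (0.32 to 0.69), the latter under the 1.5-fold line. Psph, Shmt2 and Mthfd2, which serve serine and one-carbon metabolism, had log2 ratios between 0.05 and 0.31 in the libraries. Asns, which makes asparagine, was under the floor for measured genes in both, with 3 UMIs in the positive nuclei of MASLD and 21 in those of Aza-TdC, where 12.29 were expected, a log2 ratio of 0.77 (0.11 to 1.44). With both added matchings 8 and 4 members were higher, beside 367 and 169 of all measured genes. The member lower in MASLD was Vldlr, a lipoprotein receptor, at -1.01. With only 2 or 3 Fgf21 UMIs Ddit3 had 0.43 in both libraries, and Trib3 had 0.64 in MASLD and 0.35 in Aza-TdC. Without the top UMI decile the MASLD and Aza-TdC values were 0.47 and 0.70 for Ddit3, 0.98 and 0.48 for Trib3, and 2.58 and 0.42 for Nupr1.

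The unfolded protein response, the signalling of the endoplasmic reticulum under protein load, had 2 of 19 members higher and 0 lower in each library, beside 5.41% and 2.48% of all genes higher. The chaperone partner Dnajb9 was higher in both, at 40.8 against 20.4 CPM in MASLD and 19.5 against 11.5 CPM in Aza-TdC. With only 2 or 3 Fgf21 UMIs its log2 ratios were 0.51 and 0.18, under the 1.5-fold line in both, and without the top UMI decile it had 0.39 in Aza-TdC. Hspa5 (BiP) had log2 ratios of 0.57 and 0.63, and Xbp1 of 0.62 and 0.55, on either side of the line of 0.585. The sensors Atf6 and Ern1 had ratios between -0.01 and 0.11.

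Immediate early and AP-1 genes, which cells transcribe soon after a stimulus, had the largest share of members higher among the lists described here. Of 15 measured members 11 were higher in MASLD (median 0.75) and of 11 in Aza-TdC 5 were (median 0.56), with 0 lower. Over all genes 5.41% and 2.48% were higher, and over genes under 5 kb 19.1% and 9.16%. Jun stood at 54.0 against 32.1 CPM and 25.01 against 15.2 CPM, Jund at 82.7 against 40.8 CPM and 43.5 against 26.3 CPM, and Klf6 at 34.8 against 19.4 CPM and 19.8 against 12.3 CPM. With only 2 or 3 Fgf21 UMIs the log2 ratios were 0.474 and 0.435 for Jun, 0.598 and 0.479 for Jund, and 0.869 and 0.603 for Klf6. Fos, the classical member, had 2 UMIs in the positive nuclei of MASLD and 0 in those of Aza-TdC and was not measured. Many of these genes are short, and with both added matchings 6 and 2 members were higher, with medians of 0.53 and 0.35. Of all measured genes 367 and 169 were higher with both. Of the p53 target and DNA damage genes 4 of 23 were higher in MASLD and 3 of 19 in Aza-TdC, beside 5.41% and 2.48% of all genes. None was lower, and the medians were 0.23 and 0.07. Gadd45g, a growth arrest gene, stood at 109 against 36.1 CPM in MASLD and 52.2 against 29.1 CPM in Aza-TdC, and the cell cycle inhibitor Cdkn1a had log2 ratios of 0.96 and 0.98.

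Of the secreted hepatokines other than Fgf21, 5 of 29 were higher in MASLD and 3 of 27 in Aza-TdC, and 1 was lower in each. Over all genes 5.41% and 2.48% were higher and 2.12% and 1.7% lower, so the count of lower members lies near the background. Besides Angptl8, Gdf15, a stress hormone that reduces food intake, was higher in both, at 87.9 CPM in positive against 49.4 CPM in zero nuclei of MASLD and 44.2 against 23.7 CPM in Aza-TdC. Its log2 ratios of 0.83 (0.66 to 1.00) and 0.90 (0.64 to 1.16) were 0.84 and 0.98 with both added matchings. Igfbp1, which binds insulin-like growth factors, stood at 100.2 against 40.8 CPM in MASLD and 29.6 against 21.8 CPM in Aza-TdC, with a log2 ratio there of 0.44 (0.13 to 0.75). The lower member in both was Lect2, a pericentral gene, at -0.65 and -0.99.

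Of 8 measured members of the list of FGF21 receptors and ligands 0 were higher and 0 lower in either library, beside 5.41% and 2.48% of all genes higher, so a count of 0 among 8 lies near the background. The co-receptor Klb stood at 61.3 against 61.4 CPM in MASLD and 54.4 against 55.2 CPM in Aza-TdC, log2 ratios of -0.00 (-0.19 to 0.18) and -0.02 (-0.25 to 0.20), so a 1.5-fold difference lay outside both intervals. Fgfr4, the main FGF receptor of hepatocytes, had 0.26 in both. Fgfr1 had 2 UMIs in the positive nuclei of MASLD and 1 in those of Aza-TdC. Dusp6, a feedback phosphatase that FGF signalling induces, had log2 ratios of 0.53 (0.27 to 0.78) and 0.57 (0.27 to 0.87), under the line of 0.585. Matched also on pericentral share it was past it in both, at 0.64 and 0.67, and with both added matchings at 0.65 in MASLD and 0.58 in Aza-TdC. With only 2 or 3 Fgf21 UMIs it had 0.31 and 0.14.

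Transcripts of the transcription factors that act on Fgf21 in fasting and after sugar differed little between positive and zero nuclei. Ppara stood at 2054 against 2355 CPM in MASLD and 2460 against 2538 CPM in Aza-TdC, and Mlxipl, which encodes ChREBP, at 1100 against 1250 CPM and 1562 against 1726 CPM. Their log2 ratios lay between -0.20 and -0.04. Of 43 measured PPARA targets and fatty acid oxidation genes 2 were higher in MASLD, beside 5.41% of all genes, and 5 were in Aza-TdC, beside 2.48% of all genes, with 0 lower and medians of 0.05 and 0.08. Pdk4, which diverts the cell from glucose to fat as fuel, stood at 72.3 against 37.9 CPM and 54.0 against 22.5 CPM, and its log2 ratios of 0.93 and 1.26 were 0.95 and 1.29 with both added matchings. Single nuclei held up to 33 and 25 of its UMIs. Cpt1a, which controls the entry of fatty acids into mitochondria, stood at 611 against 584 CPM and 564 against 512 CPM, log2 ratios of 0.07 (0.01 to 0.13) and 0.14 (0.07 to 0.21). Fabp1, a fatty acid carrier, had 0.54 and 0.81.

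Of the ChREBP and fructose genes 3 of 22 were higher in MASLD and 1 of 20 in Aza-TdC, and of the de novo lipogenesis genes 5 of 25 and 1 of 25, with 0 lower. Beside the 5.41% and 2.48% of all genes that were higher, the single members in Aza-TdC lie near the background. Txnip, a glucose-responsive ChREBP target, stood at 280.0 against 196 CPM in MASLD and 165 against 93.4 CPM in Aza-TdC. Mid1ip1, which activates acetyl-CoA carboxylase, stood at 49.7 against 20.3 CPM and 29.0 against 17.6 CPM. The ratio of Acly, which makes cytosolic acetyl-CoA, was 0.97 in MASLD and 0.33 in Aza-TdC, and 0.54 and -0.03 with both added matchings. Fasn had 0.32 and 0.51.

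Lipid droplet genes split in direction. Plin2, the coat protein of most hepatocyte droplets, stood at 649.8 against 402 CPM in MASLD and 386 against 255 CPM in Aza-TdC, log2 ratios of 0.69 (0.63 to 0.76) and 0.60 (0.51 to 0.68). G0s2, an inhibitor of the lipase ATGL, had 0.55 and 0.65. With both added matchings Plin2 had 0.52 and 0.41 and G0s2 0.28 and 0.51, all under the 1.5-fold line. Plin4 was lower, at 190 against 335 CPM and 97.3 against 171 CPM, log2 ratios of -0.82 in both that were -0.33 and -0.05 with both added matchings. Hsd17b13, a droplet enzyme and periportal gene, had 0.82 and 0.55, and 0.21 and 0.12 with the added matchings. Cidea, which promotes droplet growth, stood at 27.4 against 41.3 CPM in MASLD, a log2 ratio of -0.59 (-0.86 to -0.32) that was 0.20 with both added matchings, and was too scarce to be measured in Aza-TdC. Of the 520 positive nuclei of MASLD 24 (4.62%) also held 2 or more Cidea UMIs, against 7.76% of matched zero nuclei. In Aza-TdC 42 of 370 (11.4%) held 2 or more UMIs of Cux2, against 10.6%.

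Most genes of pericentral hepatocytes were lower in Fgf21-positive nuclei. Of 27 measured pericentral genes 23 were lower and 0 higher in MASLD (median -1.06), and of 26 in Aza-TdC 22 were lower and 0 higher (median -0.95), beside 2.12% and 1.7% of all genes lower. They were 21 of the 85 genes lower in both libraries. Cyp7a1, whose product opens the classical pathway from cholesterol to bile acids, stood at 132 CPM in positive and 339.5 CPM in zero nuclei of MASLD and at 164 and 411 CPM in Aza-TdC, log2 ratios of -1.36 (-1.48 to -1.25) and -1.32 (-1.45 to -1.20). It was found in 25.6% against 47.3% of nuclei in MASLD and in 28.9% against 45.1% in Aza-TdC. The glutamate transporter Slc1a2 stood at 38.9 against 213 CPM and 63.0 against 155 CPM, and glutamine synthetase (Glul) had log2 ratios of -1.51 and -0.70. The nucleotide and bile acid exporter Abcc4 stood at 6.69 against 24.1 CPM and 17.0 against 63.7 CPM, and the nuclear receptor Esrrg at 168 against 401 CPM and 119 against 269.6 CPM. The secreted neurokine-like Tafa2, the transcriptional regulator Tox, the calcineurin regulator Rcan2, the adhesion gene Tenm3 and 4 Cyp2c genes (Cyp2c29, Cyp2c38, Cyp2c50 and Cyp2c54) completed the 12 lowest. The Cyp2c genes are near-identical copies between which reads may be divided wrongly, and so are Cyp2a4 and Cyp2a5. Nuclei matched also on pericentral share are alike, within a tercile, in the summed share of the listed pericentral genes by construction. There the pericentral medians were -0.28 in MASLD, with 4 members lower, and 0.00 in Aza-TdC, with 0 lower, beside 118 and 83 of all measured genes. Cyp7a1, which is on the list, then had -0.52 in MASLD and -0.13 in Aza-TdC. Abcc4, which is not on it, had -0.87 and -0.62, and Tafa2 had -1.18 and -1.12. Cyp2c38, Cyp2c50, Esrrg, Tox, Rcan2 and Tenm3 did not reach 1.5-fold in either library there, with log2 ratios between -0.57 and -0.12. In both libraries 8 genes were lower with this matching, 7 of them among the 85.

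Periportal genes were higher in part. Of 29 measured members 11 were higher in MASLD (median 0.42) and 2 in Aza-TdC (median 0.28), with 0 lower. Over all genes 5.41% and 2.48% were higher. Sds, a serine-degrading enzyme, stood at 383 against 220 CPM in MASLD and 687 against 524 CPM in Aza-TdC, and Ctsc, a lysosomal protease, at 34.5 against 18.5 CPM and 89.6 against 62.7 CPM. The urea cycle genes Ass1, Asl, Arg1 and Otc had log2 ratios between -0.10 and 0.47 and did not reach 1.5-fold. Matched also on pericentral share, the list medians were 0.03 and -0.04.

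Several of these differences were larger in nuclei with more Fgf21 UMIs. At the threshold, Angptl8 stood at 97.0 CPM in MASLD nuclei with 1 Fgf21 UMI and at 202 CPM in those with 2, and at 85.9 and 122 CPM in Aza-TdC. With 4 or more it reached 739 and 465 CPM. Hes1 went from 32.1 CPM at 0 to 59.6 CPM at 2 and 147 CPM at 4 or more in MASLD, and from 32.8 to 45.0 and 191 CPM in Aza-TdC. Osgin1 in Aza-TdC stood at 112 CPM at 0, 156 CPM at 2, 114 CPM at 3 and 441 CPM at 4 or more. Cyp7a1 changed already at low counts: in MASLD it stood at 339.5, 244, 167, 109 and 104 CPM with 0, 1, 2, 3 and 4 or more, and in Aza-TdC at 411, 327, 177, 166 and 111 CPM. Klb stayed between 56.3 and 62.9 CPM in MASLD and between 51.7 and 63.7 CPM in Aza-TdC.

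**Figure D4:**
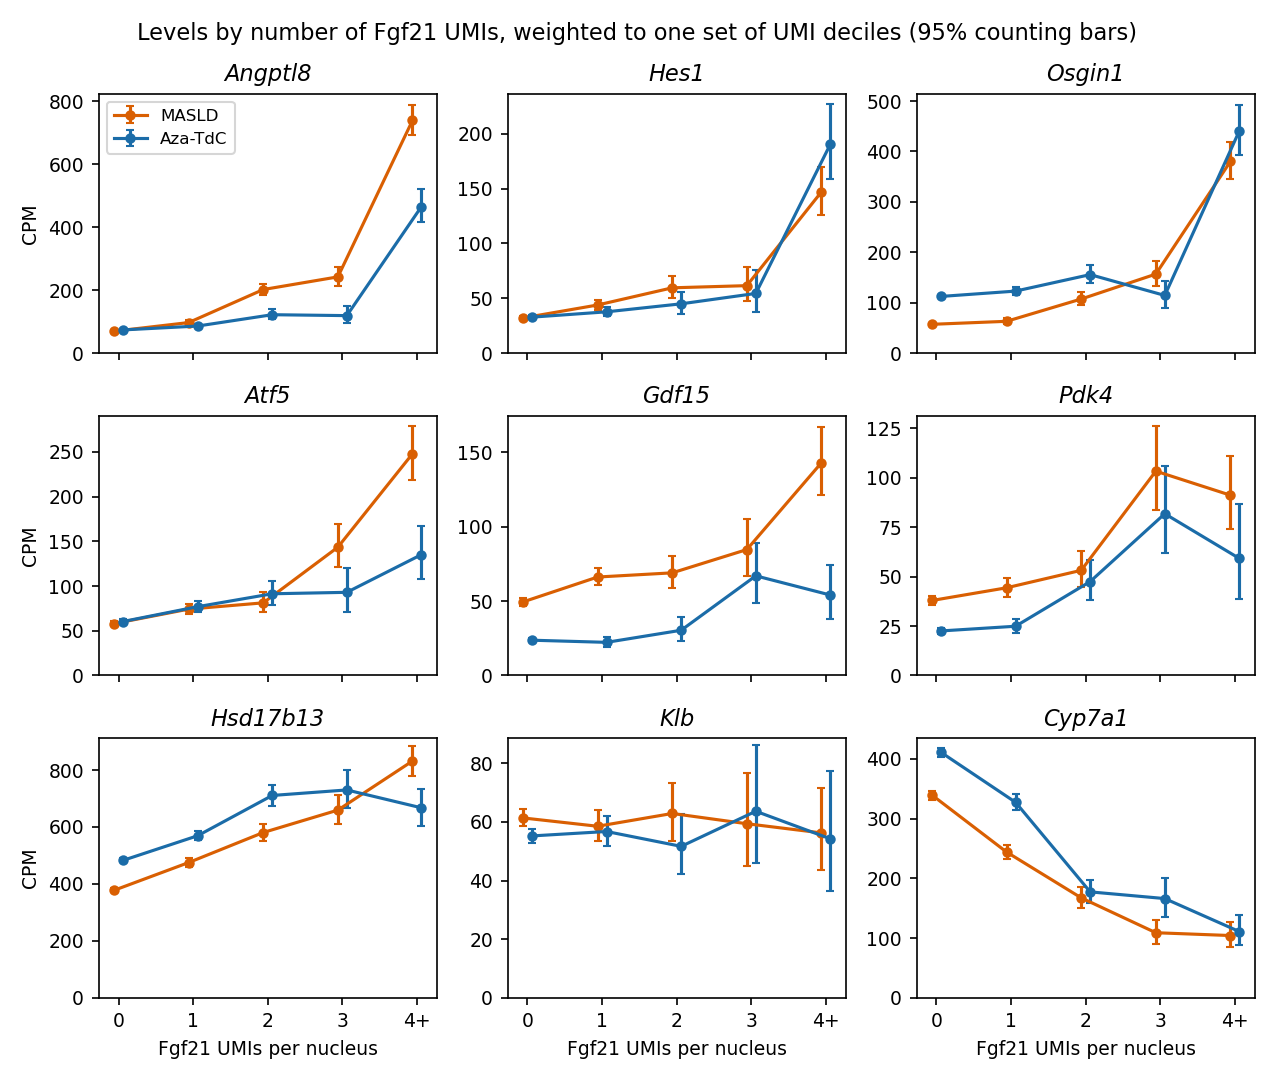
Level in CPM (95% counting bars) of 9 genes in hepatocyte nuclei with 0, 1, 2, 3 and 4 or more Fgf21 UMIs in the MASLD and Aza-TdC libraries, weighted to the UMI deciles of the positive nuclei. Angptl8 reaches 739 and 465 CPM at 4 or more, Cyp7a1 goes down to 104 and 111 CPM, and Klb stays between 51.7 and 63.7 CPM.

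Whole lists differed in how they moved with the number of Fgf21 UMIs. The integrated stress response list had median log2 ratios of 0.07, 0.07, 0.24 and 0.66 at 1, 2, 3 and 4 or more Fgf21 UMIs in MASLD, and of 0.06, 0.10, 0.24 and 0.91 in Aza-TdC. The unfolded protein response list went from 0.12 at 2 to 0.64 at 4 or more in MASLD and from 0.06 to 0.57 in Aza-TdC. The PPARA target list stayed between 0.02 and 0.07 in MASLD and between 0.02 and 0.11 in Aza-TdC. Other lists were also higher at 4 or more, with medians of 0.51 and 0.69 for cholesterol synthesis, 0.59 and 0.52 for acute phase genes, 0.66 and 0.49 for hepatokines and 0.63 and 0.77 for midlobular genes. Lists can share members, as the hepatokine and integrated stress response lists share Gdf15. The pericentral list stood at -0.40 and -0.43 already at 1 UMI. The 116 and 59 nuclei with 4 or more were also the deepest, with medians of 9918 and 9271 UMIs, and the highest in short-gene UMIs, with medians of 19.4% and 17.5%, beside 16.9% and 16.3% at 2 UMIs; the part of these in the list values was not tested beyond the weighting by decile. With these nuclei left out, so that positive meant 2 or 3 Fgf21 UMIs, 21 genes were higher and 59 lower in both libraries, 13 and 56 of them among the 99 and 85. Angptl8 then had log2 ratios of 1.63 and 0.68, Aqp8 1.04 and 0.86, Pdk4 0.85 and 1.34 and Gdf15 0.55 and 0.77, while Hes1 had 0.92 and 0.50, Osgin1 1.10 and 0.35 and Atf4 0.53 and 0.20. Of the integrated stress response list 4 members were higher in MASLD and 1 in Aza-TdC, beside 270 and 118 of all measured genes.

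**Figure D5:**
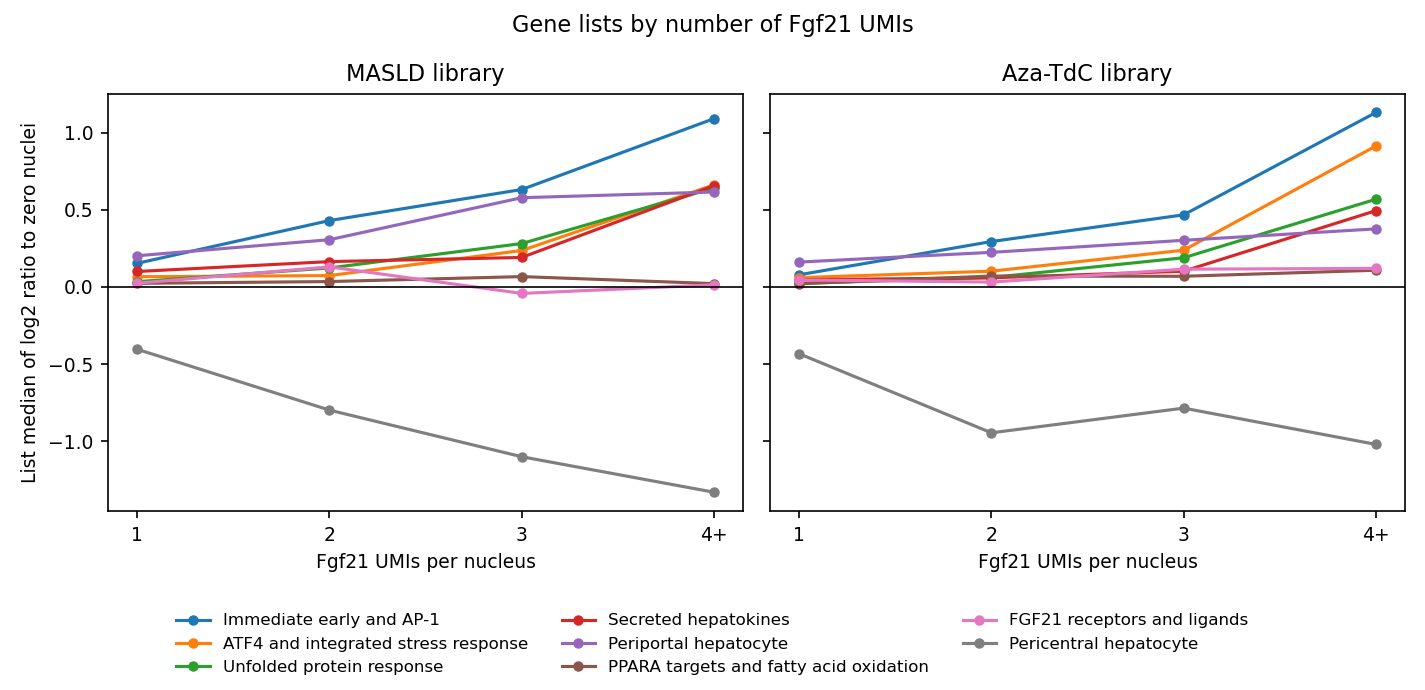
Median log2 ratio to nuclei with 0 Fgf21 UMIs over 8 gene lists, for nuclei with 1, 2, 3 and 4 or more, in the MASLD and Aza-TdC libraries. The integrated stress response median is 0.24 at 3 and 0.66 or 0.91 at 4 or more, and the pericentral median is -0.40 and -0.43 at 1.

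Nuclei of high depth bear on these counts as well. With the top decile of UMIs left out, the range in which doublets are most likely, 32 genes were higher and 71 lower in both libraries, 26 and 62 of them among the 99 and 85. Angptl8 had 1.67 and 0.92 there, Hes1 1.26 and 1.00, Gdf15 0.89 and 1.05, and Pdk4 1.27 and 1.62.

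Hepatocyte identity genes stood at a median of 0.18 and 0.16, with 1 of 26 higher in MASLD and 0 in Aza-TdC. Beside the 5.41% and 2.48% of all genes that were higher, these counts lie near the background. Of 14 Kupffer cell and macrophage markers 6 were measured in MASLD, 4 of them lower and 0 higher, with 0 of 2 past the line in Aza-TdC. Over all genes 2.12% and 1.7% were lower. The summed level of the 14 was 30.9 CPM in positive and 46.8 CPM in zero nuclei of MASLD. In Aza-TdC it was 35.2 and 36.5 CPM. The rule for hepatocyte nuclei caps the UMIs of other-cell markers, Cd5l of this list among them, in positive and zero nuclei alike. The level of such markers is held low by the rule, and its part in this sum and these counts was not tested. Of the T, NK and B cell markers Themis alone was measured. It was found in 24.5% of zero hepatocyte nuclei of MASLD, at 75.4 CPM, and its log2 ratios of -1.31 and -1.55 were -0.49 and -0.34 when nuclei were matched also on pericentral share.

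Genes beside Fgf21 on chromosome 7 were looked at within 60 kb. Fut1, whose start lies 1799 bases from that of Fgf21, held 7 and 11 UMIs in the positive nuclei and was not measured, and Izumo1 held 1 and 0. Bcat2, a branched-chain amino acid transaminase, had log2 ratios of 0.17 and 0.01. Fut2, a fucosyltransferase 33101 bases away, stood at 49.0 against 28.0 CPM in MASLD and 21.9 against 16.9 CPM in Aza-TdC, log2 ratios of 0.81 (0.58 to 1.03) and 0.37 (0.02 to 0.73) that were 0.07 and 0.11 with both added matchings. Dnmt1, the target of Aza-TdC, had a log2 ratio of -0.02 (-0.51 to 0.47) in MASLD. In Aza-TdC its log2 ratio was 0.50 (0.03 to 0.97).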

How the data were processed

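Nuclear RNA of liver was measured in 3 libraries (SD, MASLD and Aza-TdC, 1 each), grouped by the labels. The authors deposited raw UMI counts per gene and barcode as matrices; per the file headers the tool was Cell Ranger 6.1.2, and mm10 (GRCm38) and Seurat 4.4.0 are named in the submitters' processing notes. Neither says whether introns were counted. The members, the lists and the tests were chosen with earlier results of these data known. Levels are UMIs per 1000000 UMIs (CPM). For each gene the UMIs in nuclei with at least 2 Fgf21 UMIs were divided by those expected from nuclei with 0 in the same of 10 UMI deciles, without Fgf21 in the totals. Mantel-Haenszel rate-ratio intervals and exact binomial or Poisson intervals (95%) cover counting error only. Genes were measured when at least 20 UMIs were expected from the rate over all hepatocyte nuclei, and called past 1.5-fold.

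Named genes were the 12 highest and 12 lowest of those past 1.5-fold in both libraries, by the interval bound nearest 0, up to 4 members of each of 39 lists, a fixed set of 17 genes and the neighbours of Fgf21; mitochondrial genes and transcripts without a name were left out. Some genes that this rule names, 1 of them among the 12 highest, are not reported here. Examples from the lists outside this rule were chosen after their values were seen. Gene spans came from GENCODE M21 (32158 of 32285 features), promoters from RefSeq. The comparison was tested on simulated Poisson counts without added spread between nuclei. There 0.994% of unchanged genes in MASLD and 0.907% in Aza-TdC passed 1.5-fold. Real counts vary more between nuclei, so this does not show how many unchanged genes pass in these data. Python 3.11.15, numpy 2.4.6, scipy 1.17.1 and pandas 2.3.3 were used.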

Additional observations from a re-analysis of the deposited data

How the results depend on the processing

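Shares and counts of genes depended on depth and on who counted as positive. Thinned to the depth floor of the rule, 1.12% of MASLD and 0.593% of Aza-TdC hepatocyte nuclei were Fgf21-positive, thinned to 5000 UMIs 5.64% and 3.18%, and without the top UMI decile 7.04% in MASLD. The main counts were 588 genes higher and 230 lower in MASLD, 246 and 168 in Aza-TdC, and 99 and 85 in both. From 3 Fgf21 UMIs, 890 were higher in MASLD, 420 in Aza-TdC and 230 in both. Without the top UMI decile 321, 136 and 32 were higher. Without matching on UMIs 64 were higher in both, and with 1 zero nucleus drawn per positive nucleus 469 were higher in Aza-TdC. Without nuclei with at least 2 UMIs over Glul, Lgr5 and Slc1a2, 46 were lower in both. With a floor of 50 expected UMIs, 304 and 122 genes were higher and lower in MASLD, 94 and 80 in Aza-TdC and 48 and 56 in both, and with a floor of 5 the counts were 1044 and 657, 656 and 542, and 200 and 162. Past 2-fold they were 61 and 81, 13 and 49, and 6 and 34.

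The other alternatives were chosen after seeing the data. Matched also on tercile of pericentral share, 118 genes were lower in MASLD, 83 in Aza-TdC and 8 in both. Matched on short-gene share, 55 were higher in both. With both, 367 were higher in MASLD and 46 in both, and 127, 91 and 8 were lower. With only 2 or 3 Fgf21 UMIs, 270, 118 and 21 were higher. Direction turned for Cidea in MASLD (0.14 with the pericentral matching, 0.197 with both) and, in Aza-TdC, for the pericentral list median (0.00047 and 0.0123), Slc1a2 (0.0264 and 0.0752), Cyp2c29 (0.091 and 0.124) and Pparg (0.21 and 0.25). The matching itself holds alike the summed share of the listed pericentral genes, Slc1a2 among them. For Cidea, Pparg, Cyp2c29, Susd4 and Hsd17b6 the cause was not tested. Over all alternatives, 856 list medians stayed inside their interval, 43 moved and 2 turned. Of the values of the highest, lowest and fixed genes, 715 stayed, 268 moved and 8 turned. Genes named only as members of a list were not in this tally. No paired analysis was possible because each group was 1 library. Counts at 1 library a group carry no error between animals.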
